A study of Mus musculus with 16 samples.

Results

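The hippocampus of mice without APLP2 was set directly against that of mice without APP, with no wild-type array in the comparison. The members were the 4 arrays titled as APLP2 knockout (APLP2_KO, genotype APLP2-/-) and the 4 titled as APP knockout (APP_KO, genotype APP-/-), which are 8 of the 16 arrays of the study. The other 8 arrays came from 4 wild-type samples (WT) and 4 samples named N_dCKO, whose genotype label is APP-/-; APLP2-/- and which the study's title describes as a neuronal double conditional knockout. All samples were hippocampal tissue from male mice aged 2 months, of a strain that the labels write as C56/BL6. Total RNA was extracted with Trizol and hybridised as biotinylated cRNA to Affymetrix mouse arrays. Beyond the word neuronal in the title, the sources used here do not give which cells carried the deletion in N_dCKO. They do not give how either single knockout allele was made. Whether the 4 samples of each group were separate animals is not stated in the labels. The p-values therefore reflect only how far these samples spread, and that spread may be technical.

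APP, the amyloid precursor protein, and its relatives APLP1 and APLP2 are membrane proteins of neurons and other cells. Secretases cut them to release large extracellular fragments and an intracellular domain, and cutting of APP by beta- and gamma-secretase yields the amyloid-beta peptide. The family members overlap in function, and mice that lack both APP and APLP2 in the whole body die around birth, while each single loss is viable.

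The 8 arrays had similar overall properties. Their median signal lay between 85.1 and 99.3, on the deposited linear scale whose 2% trimmed mean was 500 on every array. RNA integrity was read from Gapdh probe sets at both ends of the transcript, and the 3'/5' ratio was 0.780 ± 0.026 in APP_KO (SD, n = 4) and 0.779 ± 0.031 in APLP2_KO. Its exact two-sided permutation p was 0.943. The actin 3'/5' ratio was 1.60 ± 0.07 in APP_KO and 1.67 ± 0.06 in APLP2_KO, with a p of 0.257 in the same test. The mean correlation of an array with the others of its group was 0.968 in APP_KO and 0.970 in APLP2_KO (permutation p = 0.0857). The tissue label was checked against markers of hippocampal fields. Prox1, of dentate granule cells, had signals of 497 to 837 on the 8 arrays, and Wfs1, of CA1 pyramidal cells, had 2553 to 3435. Drd2, a receptor of striatal neurons, had 60.7 to 96.0 and was below the intensity filter. Of 13 listed genes of thalamus and striatum, 10 passed it. Their mean log2 signal per array was 8.40 to 8.53 in APP_KO and 8.38 to 8.52 in APLP2_KO. The share of neighbouring tissue in the samples was not tested.

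The targeted genes were checked first. On its brightest probe set, App had signals of 2596, 2380, 2344 and 2724 on the 4 APP_KO arrays and of 19760, 17720, 21080 and 20060 on the 4 APLP2_KO arrays. The APP_KO signal was 12.8% of that in APLP2_KO, and the groups did not overlap. The log2 difference between APLP2_KO and APP_KO was 2.96 ± 0.07 (SE) with an adjusted p of 3.79e-12 in limma's moderated test, adjusted by Benjamini-Hochberg over 11694 genes. A second App probe set gave 4.18, and the remaining 2 were below the intensity filter.

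Aplp2 had signals of 5734, 5945, 5406 and 6026 in APP_KO and of 1235, 1501, 847 and 1065 in APLP2_KO. All APLP2_KO arrays lay below all APP_KO arrays, at 20.1% of the APP_KO mean. The log2 difference was -2.33 ± 0.13 with a limma adjusted p of 2.97e-07, and the 5 probe sets of Aplp2 ranged from -3.57 to -1.58. Each group had a high level of the gene that the other lacked. The remaining signal of a deleted gene on these probe sets, in APP_KO for App and in APLP2_KO for Aplp2, was close to that in N_dCKO, where the means were 2191 for App and 999 for Aplp2.

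Aplp1, the family member that neither genotype targets, had signals of 14930 to 15850 in APP_KO and of 13930 to 16550 in APLP2_KO. These ranges overlapped. Its log2 difference was -0.0002 ± 0.06 on one probe set and 0.02 ± 0.06 on the other, with exact two-sided permutation p-values of 1 and 0.743. The smallest p that 4 against 4 arrays allow is 0.0286.

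**Figure D1:**
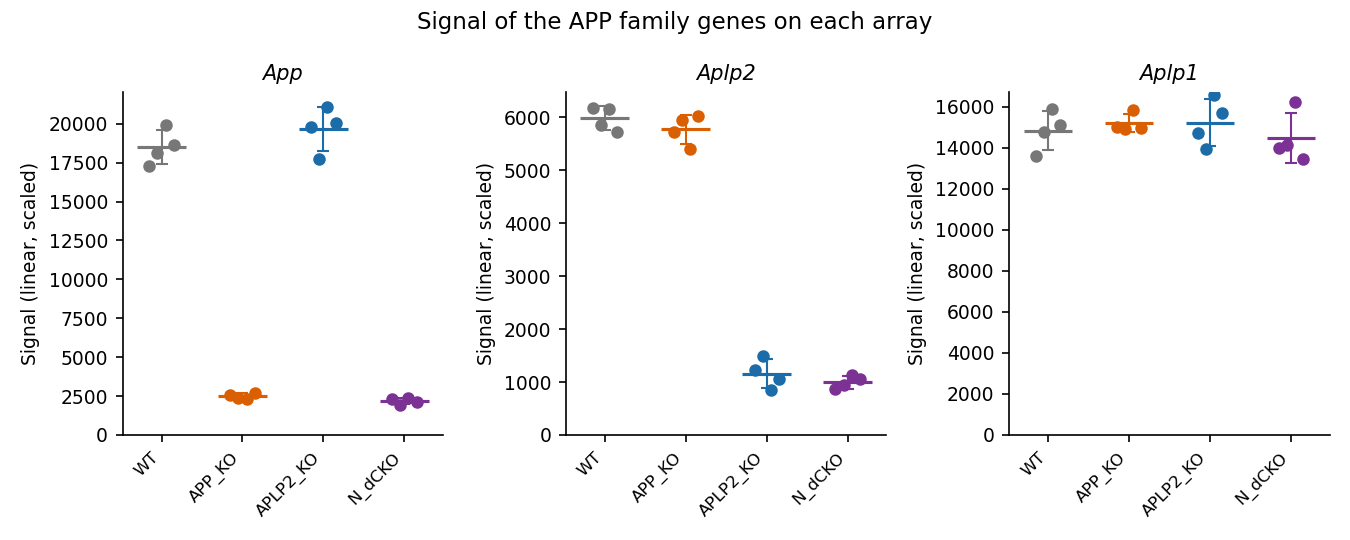
Deposited signal (linear scale, y axis from 0) of App, Aplp2 and Aplp1 on each array of the 4 groups; points are arrays, the horizontal line is the mean of 4 and the bar 1 SD. App is low in APP_KO and N_dCKO, Aplp2 is low in APLP2_KO and N_dCKO, and Aplp1 overlaps between all groups.

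Beside the targeted pair, few genes differed between the single knockouts. Of the 11694 genes tested, 12 (0.103%) passed an adjusted p of 0.05, 7 of them higher in APLP2_KO (0.0599%) and 5 lower (0.0428%). App and Aplp2 were 2 of these 12. With each array centred on its own median signal, 17 genes passed, 8 higher and 9 lower. An unadjusted p below 0.05 was found for 896 genes (7.66%), and for 495 genes (4.23%) all arrays of one group lay above all arrays of the other. The median log2 difference over all genes was -0.006, and the median SE was 0.098. The count was 23 without APP_KO array 2 and 6 without APP_KO array 4.

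The arrays of WT and N_dCKO took no part in this fit and gave a second reading of the same genes. By its genotype label N_dCKO lacks both genes, though the title calls that knockout neuronal and conditional, and WT lacks neither. The 2 comparisons are different contrasts, since the reference group lacks APP in the first and lacks neither protein in the second. App itself therefore had opposite signs, 2.96 and -3.07, and Aplp2 the same sign, -2.33 and -2.58. In N_dCKO against WT, fitted on those 8 arrays alone, 108 of the same 11694 genes passed (0.924%). All 10 of the called genes other than App and Aplp2 had the same sign there as in APLP2_KO against APP_KO, and 6 of the 10 were called. The same sign was seen for 52.5% of all genes. All 10 also had an unadjusted p below 0.05 with the same sign, against 6.48% of all genes. The count of 6 called was 2 when WT array 2 was left out. The WT arrays lay apart from APLP2_KO for 9 of the 10 genes (4.50% of all genes) and from APP_KO for 0 (2.64% of all genes). The 10 genes were chosen because the same APLP2_KO and APP_KO arrays differed. The shares over all genes are therefore not a like background for these counts. APLP2_KO and APP_KO were also each set against WT by limma, with all groups sharing the estimate of the spread. In APLP2_KO against WT, Galc (adjusted p = 0.000138), Mpeg1, Ddx6, Fxyd2, 2900052N01Rik, Pdgfd and Zfp874a (0.0224) passed. Card10 and Neo1 (both 0.0524) and Wdfy1 (0.316) did not. In APP_KO against WT, adjusted p for the 10 genes ranged from 0.853 (Wdfy1) to 0.99968. Which loss each difference follows was not tested on arrays other than those that chose the genes.

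Of the genes higher in APLP2_KO, Wdfy1, which encodes an endosomal protein with a phosphoinositide-binding FYVE domain, had the largest difference after App. Its signals were 410, 351, 299 and 365 in APP_KO and 1008, 960, 1518 and 1075 in APLP2_KO. The lowest APLP2_KO array was far above the highest APP_KO array. The log2 difference was 1.64 ± 0.14, with a limma adjusted p of 4.75e-05. The 4 WT arrays did not lie together: arrays 1 and 4 had 1012 and 969, within the range of APLP2_KO, while arrays 2 and 3 had 351 and 407, within that of APP_KO. N_dCKO was at 911 to 1050. In N_dCKO against WT the log2 difference of Wdfy1 was 0.68 ± 0.28, with an adjusted p of 0.337.

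Card10, a scaffold protein that couples receptors to NF-kappaB signalling, had signals of 145, 176, 131 and 183 in APP_KO and of 430, 495, 335 and 346 in APLP2_KO. No array of one group reached the other group. Its log2 difference was 1.28 ± 0.15 with a limma adjusted p of 0.00303. WT ranged from 142 to 308, below all APLP2_KO arrays. In N_dCKO against WT the log2 difference was 0.82 ± 0.19 with an adjusted p of 0.0697.

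Fxyd2, the gamma subunit of the sodium-potassium pump, had signals of 152, 183, 209 and 168 in APP_KO and of 336, 542, 364 and 359 in APLP2_KO. APLP2_KO array 2 was the highest, and all 4 lay above APP_KO. The log2 difference was 1.11 ± 0.16 with a limma adjusted p of 0.0106, and 0.0509 without APP_KO array 4. N_dCKO against WT gave 1.03 ± 0.16 with an adjusted p of 0.0176, at signals of 283 to 440 against 141 to 218.

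The uncharacterised transcript 2900052N01Rik had signals of 1388, 1319, 855 and 1009 in APP_KO and of 1984, 2307, 2792 and 1674 in APLP2_KO, with no overlap. APLP2_KO over APP_KO gave a log2 difference of 0.93 ± 0.16 at a limma adjusted p of 0.0456, which was lost in 5 of the 8 fits with 1 array left out, reaching 0.157 without APP_KO array 4. In N_dCKO against WT it was 1.11 ± 0.11 with an adjusted p of 0.000888.

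Galc encodes galactosylceramidase, the lysosomal enzyme that degrades the myelin lipid galactosylceramide. Its signals were 461, 432, 400 and 370 in APP_KO and 574, 673, 614 and 671 in APLP2_KO, with a gap between the groups. WT, at 322 to 379, lay mostly below APP_KO. APLP2_KO over APP_KO gave a log2 difference of 0.60 ± 0.10 with a limma adjusted p of 0.0323, which passed in 2 of the 8 fits with 1 array left out and reached 0.137 without APP_KO array 4.

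Neo1, or neogenin, a receptor for netrins and repulsive guidance molecules, had the smallest called difference. Signals were 2320, 2190, 2206 and 2310 in APP_KO and 3014, 2798, 2820 and 3091 in APLP2_KO. The spread within each group was small beside the gap between them. APLP2_KO over APP_KO gave a log2 difference of 0.38 ± 0.06 with a limma adjusted p of 0.0185, and 0.0845 without APLP2_KO array 1. N_dCKO against WT gave 0.38 ± 0.07 with an adjusted p of 0.0329.

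Pdgfd, a platelet-derived growth factor ligand, was the most reduced gene in APLP2_KO after Aplp2. It had signals of 276, 243, 280 and 385 in APP_KO and of 139, 115, 107 and 99.0 in APLP2_KO. The APLP2_KO mean was 38.8% of the APP_KO mean, and no arrays overlapped. This was a log2 difference of -1.29 ± 0.16 with a limma adjusted p of 0.00400. In N_dCKO against WT it was -1.76 ± 0.25 with an adjusted p of 0.0125.

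Mpeg1, perforin-2, which forms pores in engulfed bacteria and is made by phagocytes, had signals of 406, 595, 421 and 504 in APP_KO and of 215, 234, 255 and 310 in APLP2_KO. WT, at 500 to 598, overlapped APP_KO and not APLP2_KO. APLP2_KO over APP_KO was at a log2 difference of -0.90 ± 0.14 with a limma adjusted p of 0.0300, and 0.137 without APP_KO array 4. N_dCKO against WT gave -1.08 ± 0.12 with an adjusted p of 0.00149.

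Zfp874a, a zinc finger protein gene, had signals of 298, 358, 391 and 386 in APP_KO and of 146, 213, 206 and 214 in APLP2_KO. The groups did not overlap, and APLP2_KO array 1 was the lowest. The APLP2_KO arrays differed from APP_KO by a log2 value of -0.86 ± 0.14 with a limma adjusted p of 0.0449, which passed in 1 of the 8 fits with 1 array left out, reaching 0.158 without APP_KO array 4.

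Ddx6, a helicase of processing bodies that acts in mRNA decay and translational repression, had signals of 3891, 4338, 3620 and 3831 in APP_KO and of 2469, 2417, 2358 and 2951 in APLP2_KO. WT, at 3761 to 3994, lay within the APP_KO range. On the log2 scale the difference was -0.62 ± 0.08 with a limma adjusted p of 0.00352, and that in N_dCKO against WT was -0.54 ± 0.08 with 0.0124. The other Ddx6 probe sets past the intensity filter gave 0.14 and -0.47, with exact two-sided permutation p-values of 0.571 and 0.200, so the result rests on 1 probe set. Averaged over its probe sets, Ddx6 was at -0.32 and was no longer called.

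Other probe sets of the remaining called genes varied in number. Fxyd2, Neo1, 2900052N01Rik and Wdfy1 had more than 1 probe set past the filter, with the same sign on each. Card10, Galc, Mpeg1, Pdgfd and Zfp874a had a single one.

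**Figure D2:**
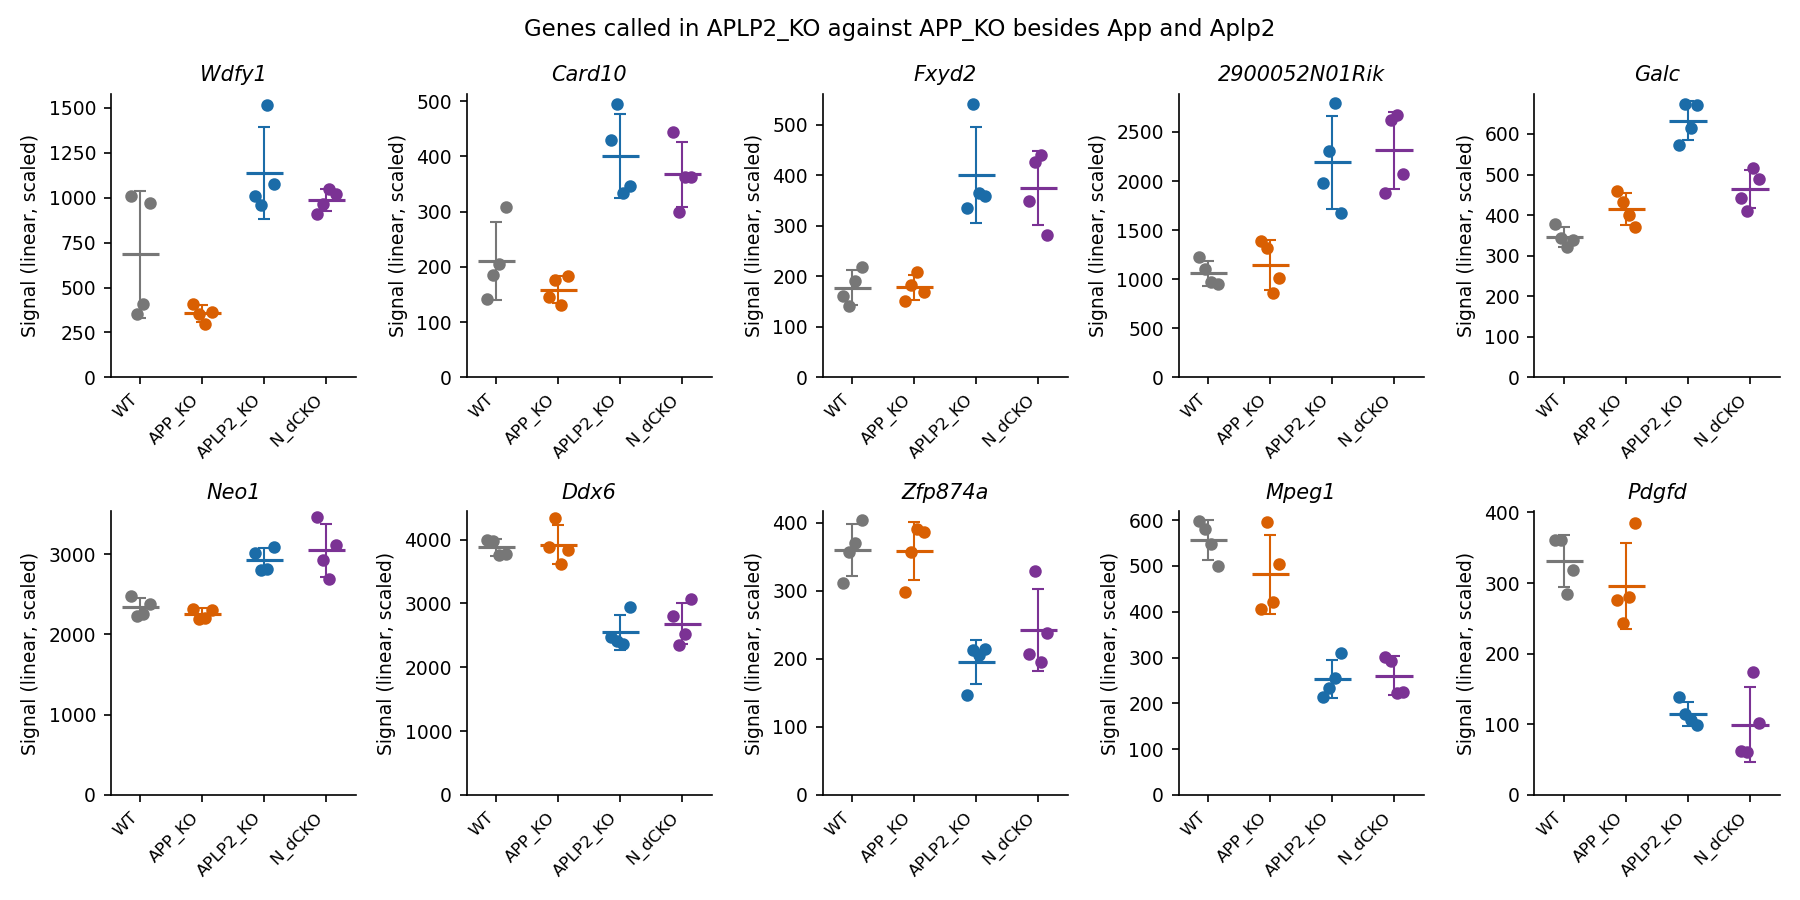
Deposited signal (linear scale, y axes from 0) of the 10 genes called between APLP2_KO and APP_KO other than App and Aplp2, on each array of the 4 groups; points are arrays, lines the mean and bars 1 SD (n = 4). In each panel the APLP2_KO points lie apart from the APP_KO points, and the WT points of Wdfy1 fall into a high and a low pair.

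**Figure D3:**
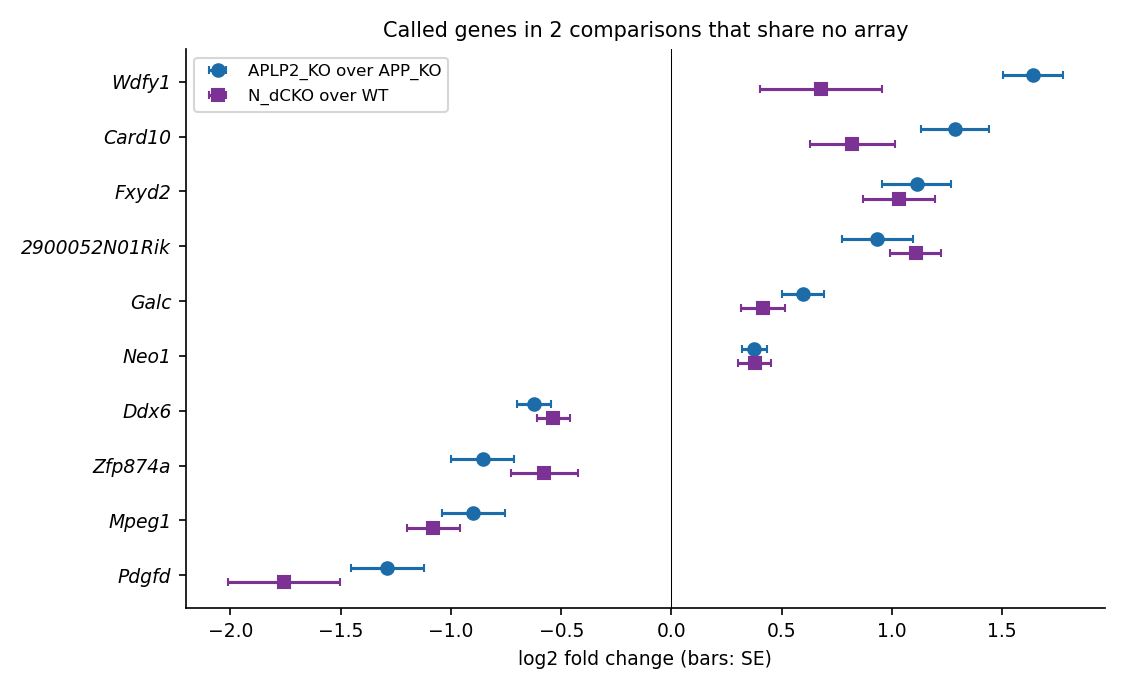
Log2 fold change with SE (x axis) of the same 10 genes in APLP2_KO over APP_KO and in N_dCKO over WT, which share no array. All 10 have the same sign in both comparisons.

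Of the called genes, 5 other than App and Aplp2 lay on chromosome 9, the chromosome of Aplp2: Fxyd2, 2900052N01Rik, Neo1, Ddx6 and Pdgfd. Besides Aplp2, 674 genes of chromosome 9 were tested, and 60 of them (8.90%) had groups that did not overlap. On other chromosomes, apart from App, 433 of 11018 genes did so (3.93%), and 5 were called. Among 88 genes tested within 10 Mb of Aplp2, limma called 0, against 0.103% of all genes. An unadjusted p below 0.05 was found for 8 (9.09%), against 7.66% of all genes. The 5 called genes lay 13.5 Mb (Ddx6), 14.2 Mb (Fxyd2), 15.8 Mb (2900052N01Rik) and 27.7 Mb (Neo1) beyond its start, and 25.0 Mb before it (Pdgfd).

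The stretch from 10 to 20 Mb beyond Aplp2 was chosen for description after its values were seen. Of its 76 tested genes, 21 (27.6%) had groups that did not overlap, 11 higher and 10 lower in APLP2_KO, against 4.23% of all genes. On the N_dCKO and WT arrays, 20 of the 76 genes (26.3%) did not overlap, against 7.38% of all genes. These were only partly the same genes: 10 of the 76 were apart in both comparisons with the same sign. The sign was the same in both comparisons for 62 of the 76 (81.6%), against 52.5% of all genes. In the 10-Mb windows of all chromosomes that held 20 or more tested genes, of which there were 216, the median share apart was 3.70%, and a window of chromosome 9 holding these genes had the highest share, 30.4%.

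Several members of that stretch had sizeable differences that did not pass the adjusted threshold. Nxpe4 was at -1.04 ± 0.19 (limma adjusted p = 0.0726), Tmem25 at -0.99 ± 0.20 (0.129) and Htr3a, the serotonin-gated channel subunit of interneurons, at -0.95 ± 0.20 (0.142). Scn4b, a sodium channel beta subunit, was at 0.66 ± 0.15 (0.169). Bace1, the beta-secretase, lies in the same stretch. Its signals of 2952 to 3261 in APP_KO lay below the 3352 to 3815 of APLP2_KO, with a log2 difference of 0.16 ± 0.06 and an adjusted p of 0.529.

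The genes nearest to each targeted gene did not pass the test. The 6 tested genes flanking Aplp2, from Snx19 to Arhgap32, had log2 differences between -0.20 (Zbtb44) and 0.14 (Prdm10), and the 6 flanking App had values between -0.24 (Cyyr1) and 0.17 (Adamts1). Their limma adjusted p-values ranged from 0.635 to 0.977. Within 10 Mb of App, 62 genes were tested. Of these, 0 were called by limma (0.103% of all genes) and 0 had an unadjusted p below 0.05 (7.66% of all genes). The groups did not overlap for 1 of them (1.61%), Adamts1, against 4.23% of all genes. With so low a share called over all genes, 0 calls near either gene do not show an absence of change. Coordinates served only for order and distance, since the array values carry no genome build.

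**Figure D4:**
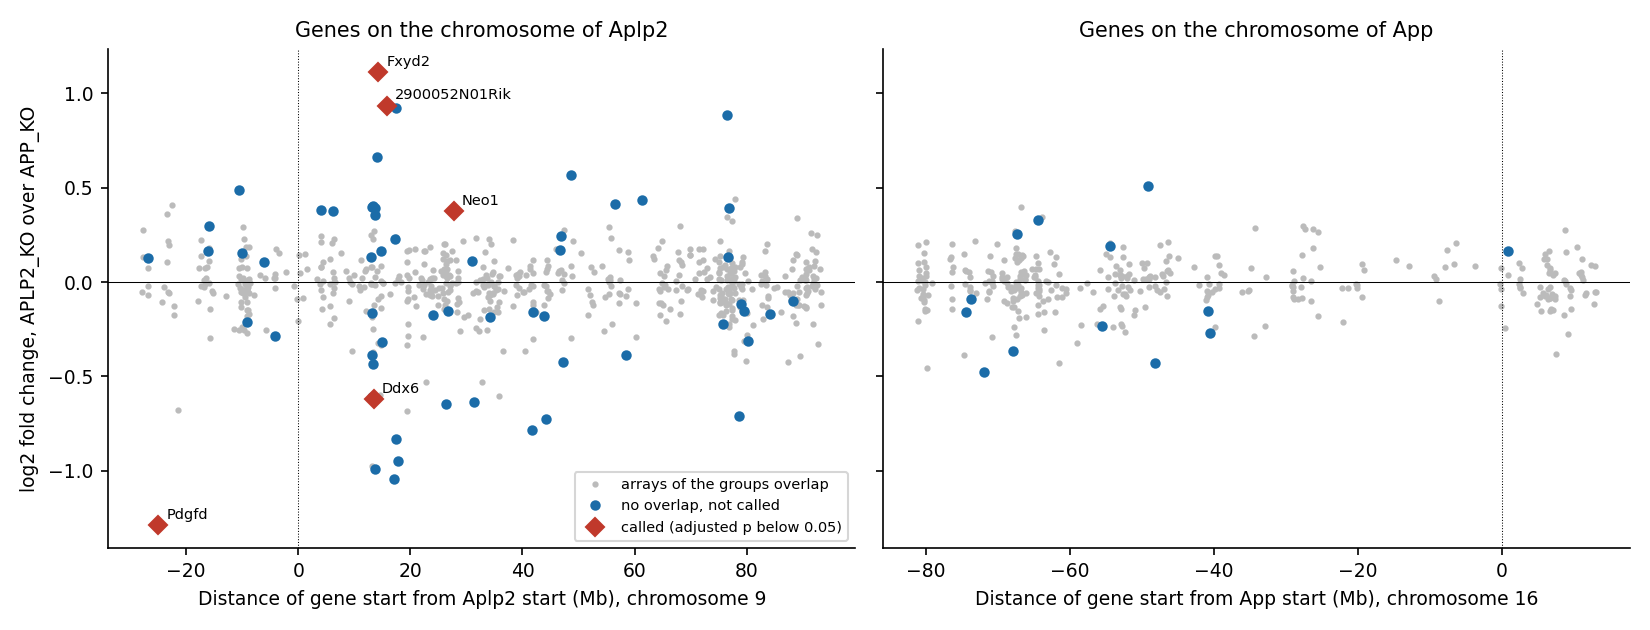
Log2 fold change of APLP2_KO over APP_KO (y axis) for genes on the chromosomes of Aplp2 and App against distance from the start of that gene in Mb (x axis); diamonds are called genes, blue points have groups that do not overlap, grey points overlap. The 5 called genes shown are in the panel of Aplp2, the closest 13.5 Mb away; App and Aplp2 are not drawn.

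Groups of genes were then read as fixed lists, each described by its counts and its median beside the same over all genes. Over all 11694 genes the median was -0.006, 48.1% had a positive difference, 7.66% had an unadjusted p below 0.05 and 4.23% had groups that did not overlap. In bulk tissue, fewer cells of a type and less RNA per cell cannot be told apart. The list of APP family and secretase genes had 16 tested members, 10 of them with a positive log2 difference and a median of 0.07. App and Aplp2 were its called members. Adam17, an alpha-secretase, was at 0.27 ± 0.12 (limma adjusted p = 0.623).

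Genes of oligodendrocytes and myelin had mostly positive differences, none of which passed the test. Of 17 tested members, 16 had a positive log2 difference, 10 had an unadjusted p below 0.05 (7.66% of all genes) and 0 were called, with a median of 0.34. Mag, myelin-associated glycoprotein, had signals of 2158, 3988, 2732 and 3125 in APP_KO and of 4012, 4201, 4175 and 4737 in APLP2_KO. The groups were apart by a narrow margin at APP_KO array 2. Its log2 difference was 0.54 ± 0.14 with a limma adjusted p of 0.264. Cldn11, the tight junction protein of myelin, was at 0.47 ± 0.13 (0.325), and Mog at 0.50 ± 0.17 (0.484). Averaged over the list, log2 signals were 11.39, 12.17, 11.51 and 11.62 on the 4 APP_KO arrays and 11.82, 11.95, 11.95 and 12.06 in APLP2_KO. APP_KO array 2 exceeded all APLP2_KO arrays, so the groups overlapped. Without that array the list median was 0.53, the highest of the alternative settings, which ranged from 0.21 to 0.53. In that fit 23 genes were called over all genes, Cldn11 (0.61), Mag (0.69) and Mog (0.72) among them. No other fit with 1 array left out called any of these myelin genes. For N_dCKO over WT the list median was -0.52, with 16 of 17 members negative. For Galc, which acts on a myelin lipid, N_dCKO against WT gave 0.41 ± 0.10 (adjusted p = 0.0785). The part of the myelin genes in the Galc difference was not tested. Precursor genes followed with 10 of 11 positive, a median of 0.17, 0 called and 3 with an unadjusted p below 0.05. Gpr17 was at 0.30 ± 0.10 and Lhfpl3 at 0.26 ± 0.08 (adjusted p of 0.484 and 0.410).

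Cholesterol and fatty acid synthesis genes also had mostly positive differences. Of 21 tested members, 20 were positive (48.1% of all genes), 12 had an unadjusted p below 0.05 (7.66% of all genes) and 6 had groups that did not overlap (4.23% of all genes). The median was 0.22, and 0 were called. Hmgcs1, the enzyme that makes HMG-CoA ahead of the rate-limiting step, had signals of 9309, 12400, 12270 and 11830 in APP_KO and of 14790, 14150, 15380 and 15640 in APLP2_KO. APP_KO array 1 was the lowest and the groups did not overlap. On the log2 scale the difference was 0.40 ± 0.08 with a limma adjusted p of 0.130, and 0.0400 when all 16 arrays shared the estimate of the spread, which called the gene. Msmo1, a sterol demethylating enzyme, was at 0.34 ± 0.10 (0.397) and Sqle, squalene epoxidase, at 0.30 ± 0.09 (0.410). The list means were 10.46, 10.74, 10.68 and 10.66 in APP_KO against 10.80, 10.88, 10.88 and 10.80 in APLP2_KO, with no overlap. The WT means were 10.73, 10.83, 10.79 and 10.81. For N_dCKO over WT the median was -0.15, with 19 of 21 members negative.

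The promoter of Hmgcs1 is shown because this gene had the smallest p of the list. It covers chr13:119690101-119690400 on the plus strand of GRCm38.p6, from the RefSeq promoter table, and capitals mark the letters TCACNCCAC, the core of the sterol response element, searched on both strands.
Hmgcs1: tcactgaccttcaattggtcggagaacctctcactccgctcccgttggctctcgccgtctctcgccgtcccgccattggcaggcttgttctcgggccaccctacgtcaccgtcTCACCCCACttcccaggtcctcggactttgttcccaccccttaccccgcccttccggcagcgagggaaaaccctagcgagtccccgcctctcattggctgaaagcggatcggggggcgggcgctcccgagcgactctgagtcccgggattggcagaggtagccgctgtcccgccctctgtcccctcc
Of the 16 list members with a promoter in that table, 1 held the letters (6.25%). The share was 1.42% of the 9495 tested genes with a promoter, and 1.24% of all 32851 promoters.

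Interferon response genes had mostly negative differences. Of 15 listed genes, 11 were tested; 10 were negative, 4 had an unadjusted p below 0.05 (7.66% of all genes), 3 had groups that did not overlap (4.23% of all genes) and 0 were called. The median was -0.43, and -0.10 when only the brighter probe sets, above the 75th percentile, were kept. Rsad2, viperin, an antiviral enzyme, had signals of 162, 246, 194 and 182 in APP_KO and of 160, 130, 120 and 83.4 in APLP2_KO. The groups did not overlap, but APP_KO array 1 and APLP2_KO array 1 were close. Its log2 difference was -0.65 ± 0.19 with a limma adjusted p of 0.397. Ifit3, an interferon-induced antiviral gene, was at -0.54 ± 0.19 (0.504), and Lgals3bp at -0.51 ± 0.14 (0.327). The list means were 8.29, 8.26, 7.75 and 8.04 in APP_KO against 7.91, 7.81, 7.52 and 7.62 in APLP2_KO, which overlapped at APP_KO array 3. The median in N_dCKO against WT was -0.39.

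The promoters of Ifit3 and Rsad2 are shown because both genes had groups that did not overlap and a match to the searched letters. Lgals3bp, whose groups did not overlap either, had a promoter in the table with no match. They cover chr19:34583279-34583578 on the plus strand and chr12:26456403-26456702 on the minus strand of GRCm38.p6, from the RefSeq promoter table. Capitals mark matches to GAAANNGAA on either strand, the core of the interferon-stimulated response element.
Ifit3: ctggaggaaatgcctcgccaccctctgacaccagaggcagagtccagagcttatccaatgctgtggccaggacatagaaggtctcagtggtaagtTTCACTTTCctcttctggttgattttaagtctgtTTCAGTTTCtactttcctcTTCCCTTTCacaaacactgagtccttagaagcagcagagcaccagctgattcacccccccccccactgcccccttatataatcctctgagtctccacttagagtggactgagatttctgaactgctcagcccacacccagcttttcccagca
Rsad2: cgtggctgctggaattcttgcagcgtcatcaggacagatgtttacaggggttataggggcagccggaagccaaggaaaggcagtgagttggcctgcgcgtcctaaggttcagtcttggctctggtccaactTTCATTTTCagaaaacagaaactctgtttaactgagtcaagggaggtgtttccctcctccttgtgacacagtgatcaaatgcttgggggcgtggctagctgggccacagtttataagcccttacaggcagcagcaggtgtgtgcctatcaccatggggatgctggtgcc
Of 8 list members with a promoter in the table, 4 held a match (50%: Bst2, Ifit3, Ifitm3 and Rsad2). The share was 8.27% of the 9495 tested genes with a promoter, and 8.56% of all 32851 promoters.

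Endoplasmic reticulum chaperones and heat shock genes had mostly negative differences as well. Of 21 tested members, 17 were negative, 7 had an unadjusted p below 0.05 (7.66% of all genes) and 3 had groups that did not overlap (4.23% of all genes). The median was -0.15, and 0 were called. All members with an unadjusted p below 0.05 act in the endoplasmic reticulum or its stress response. They were Hspa5, Sdf2l1, Pdia6, Manf, Xbp1, Herpud1 and Dnajb11. Not all members of this kind were lower. Hyou1 was at 0.14, Atf4 at 0.09 and Pdia4 at 0.06, among the 4 positive members of the list. Cytosolic heat shock genes ranged from -0.22 (Hspb1) to 0.01 (Dnajb1), with unadjusted limma p-values from 0.232 to 0.984. List means were 10.99 to 11.20 in APP_KO and 10.88 to 11.08 in APLP2_KO, which overlapped. Hspa5, the chaperone BiP, had signals of 9683, 9923, 7912 and 9104 in APP_KO and of 6791, 6842, 8340 and 7162 in APLP2_KO. APP_KO array 3 fell below APLP2_KO array 3, so the groups overlapped. On the log2 scale the difference was -0.33 ± 0.08 with a limma adjusted p of 0.237. Sdf2l1, an endoplasmic reticulum protein of the BiP complex, was at -0.36 ± 0.10 (0.314). The median in N_dCKO against WT was -0.23.

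Among microglia genes, Mpeg1 was the single called member of 20 tested. The list median was -0.08, with 13 negative and 7 positive. An unadjusted p below 0.05 was found for 4 lower members and 1 higher member (7.66% of all genes). For 2 members the groups did not overlap (4.23% of all genes). Fcrls was at -0.51 ± 0.13 (limma adjusted p = 0.302), Selplg at -0.27 ± 0.10 (0.504) and Ctss at -0.28 ± 0.11 (0.580). P2ry12, the ADP receptor of resting microglia, was the higher one, at 0.25 ± 0.11 (0.615). Averaged over the list, log2 signals were 9.21, 9.48, 9.31 and 9.30 in APP_KO and 9.18, 9.29, 9.17 and 9.19 in APLP2_KO, which overlapped. For N_dCKO over WT the median was -0.42 with all 20 members negative. The part of the other microglia genes in the Mpeg1 difference was not tested.

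Choroid plexus genes, which come from tissue next to the hippocampus, had a median of -0.09 with 14 of 18 tested members negative, 0 called and 2 with an unadjusted p below 0.05. The sign of that median was not stable: it ranged from -0.35 to 0.04 over the alternative settings. Aqp1, a water channel, was at -0.61 ± 0.23 (limma adjusted p = 0.544), and Ttr had signals of 26839 to 37234 on the 8 arrays, close to the brightest on the array. The median in N_dCKO against WT was -2.05. The 33 lists contained 2 further called members, Aplp2 and App aside: Galc in the lysosome list and Mpeg1. The 7 lists of neuron types, receptors and synapses had small medians, from -0.05 for CA pyramidal neurons and glutamate receptors to 0.03 for GABA receptors and postsynaptic scaffold genes, with 0 members called and 0 to 2 of each list at an unadjusted p below 0.05. Single members could lie further out than the medians. Gabra2, in the GABA receptor list, was at 0.77 ± 0.22 (limma adjusted p = 0.354), with groups that overlapped. The sign of the median turned under at least 1 alternative setting for 5 of the 7 lists, GABA receptors and the presynaptic vesicle cycle being the others. The mean log2 signal of the GABAergic interneuron list, which holds Htr3a, was 10.62 to 10.65 in APP_KO and 10.53 to 10.62 in APLP2_KO, and these groups did not overlap (10.625 against 10.616 at the nearest arrays). Its median log2 difference was -0.01, with 8 members positive and 8 negative.

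**Figure D5:**
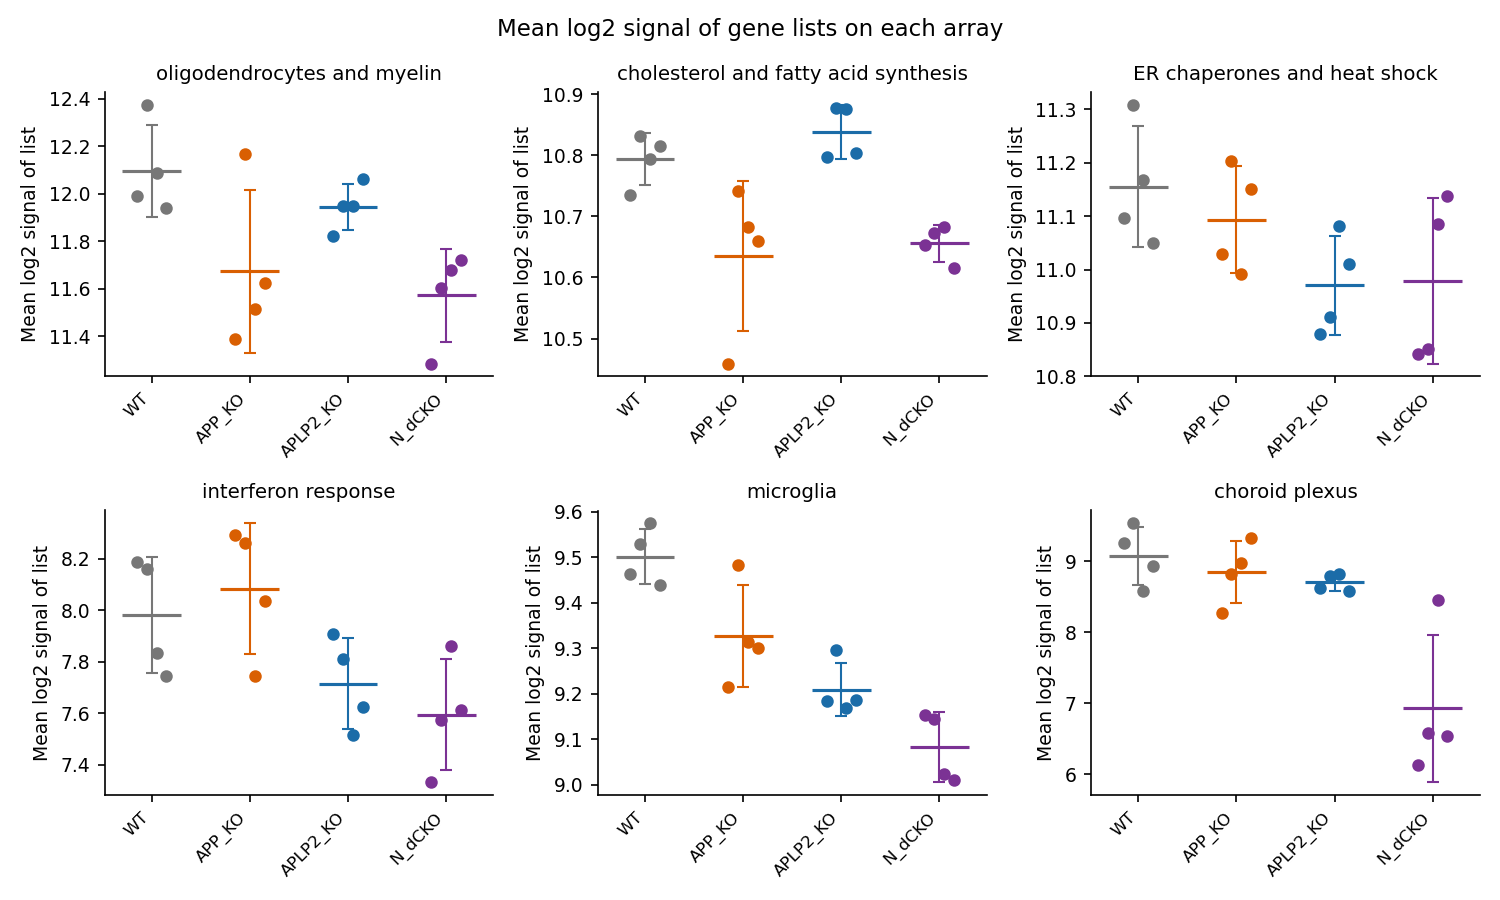
Mean log2 signal of 6 gene lists on each array (y axis) in the 4 groups; points are arrays, the line is the mean and the bar 1 SD (n = 4). Cholesterol and fatty acid synthesis is the list here whose APP_KO and APLP2_KO points do not overlap; APP_KO array 2 overlaps APLP2_KO in the myelin panel.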

How the data were processed

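The authors deposited MAS5 intensities (per the submitters' processing notes, which give no version) on a linear scale, for 45101 probe sets on each of 16 arrays. The deposited signals were not normalized further. The annotation gave a single symbol for 34958 of them, several for 932 and had no entry for 9211; only the first kind was named, and 64 were controls. The symbols of 34754 were found in a gene table of GRCm38.p6, and 0 changed.

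The authors' signals were transformed as log2(signal + 9), which understates changes of dim genes. A probe set was kept if its mean log2 signal over the 8 arrays reached the median of all (6.61, a signal of 89.0), and the brightest per gene was used, giving 11694 genes. limma 3.58.1 in R 4.3.3, with version 1.17.8 of data.table, fitted 1 mean per group and variances with an intensity trend (6 residual degrees of freedom, 13.6 moderated); the fit was tested on simulated data. Benjamini-Hochberg adjustment was applied to the two-sided p-values, and genes were called where it was below 0.05. The ± gives the SE of a log2 difference and the SD of a signal. The number of arrays limits the precision.

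N_dCKO against WT was fitted the same way on the other 8 arrays. Named genes were App, Aplp2 and Aplp1; the called genes whose arrays did not overlap, at most 15 in each direction by size; the 3 tested genes on each side of App and Aplp2; and, for each list described, called members and up to 4 with the smallest p. The members and lists were chosen with earlier results of these data known, so no test was run over a list. Alternatives covered normalization, pseudocount, filter, probe set choice, variance model, arrays in the fit, replicate block and window size.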

Additional observations from a re-analysis of the deposited data

Results flagged for a closer look

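Within a group of 4 arrays, the gap of the highest or lowest array to its neighbour was set against the whole range, and compared with Dixon's 95% critical value. Of 196 groups checked, 10 passed, and chance gives about 1 in 20. In APLP2_KO, array 2 was high for Fxyd2 (ratio 0.833), array 1 low for Zfp874a (0.890), and array 3 high for Gabpa (0.882) and Selplg (0.904). In APP_KO, array 3 was high for Aplp1 (0.892), array 4 high for Zbtb44 (0.879), array 2 low for Nfrkb (0.928) and array 1 low for Hmgcs1 (0.836). The list mean of microglia genes was high on APLP2_KO array 2 (0.871), and that of ependyma and motile cilia genes was low on APP_KO array 1 (0.861).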

How the results depend on the processing

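The main count of 12 called genes was 6 with the 75th percentile filter, 20 with all 16 arrays sharing the spread (12 shared) and 1 in the ordinary test without moderated variances. Leaving out 1 array gave 6 (without APP_KO array 4) to 23 (without APP_KO array 2). Within 10 Mb of App or Aplp2, 0 genes were called (0.103% of all genes). A 20 Mb window gave 3 and a 5 Mb window 0. N_dCKO against WT had 108 calls, and between 9 (without WT array 2) and 105 with 1 array left out; omitting WT array 1 gave 22, omitting N_dCKO array 1 gave 18, and omitting N_dCKO array 2 gave 52. The cause of these changes was not tested, except that fewer genes or arrays enter some of the fits.

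No result reversed its sign among the called genes. The same sign in N_dCKO against WT held for 10 of 10 genes in all 12 settings, with 2 to 6 called. Among alternatives, calls were lost in 12 of 21 for 2900052N01Rik, 11 of 20 for Zfp874a, 10 of 21 for Galc, 8 of 21 for Neo1 and 7 of 20 for Mpeg1, and in 0 of 21 for App. The ordinary test left Aplp2 at an adjusted p of 0.0671. The interferon median was -0.10 with the 75th percentile filter. With the replicate number as a block, 15 genes were called (11 shared) and N_dCKO against WT had 89; Galc was no longer called. Same-numbered arrays had residual correlations of 0.05, 0.07, 0.01 and 0.11, all positive. Arrays of different number had values from -0.15 to 0.12. The main fit did not treat the numbers as pairs, and whether they mark a batch was not tested. Signal over background limits the dim genes, such as Pdgfd in APLP2_KO.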

Other observations

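A second region had a high share of genes whose groups did not overlap, chosen after its values were seen. In a 10-Mb window of chromosome 3, 10 of 42 tested genes (23.8%) were apart in APLP2_KO against APP_KO, against 4.23% of all genes. In N_dCKO against WT, 10 of 42 (23.8%) were apart, against 7.38% of all genes. The sign was the same for 76.2% of its genes and for 52.5% of all genes. Exosc9, an RNA exosome subunit, was at -0.83 ± 0.18 (adjusted p = 0.165) and at -1.12 in N_dCKO against WT (0.00300). Cetn4, a centrin, was at -0.80 ± 0.14 (0.0661) and at -1.46 (0.0176).

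Serpina3n, a secreted protease inhibitor induced in reactive astrocytes, was at 1.36 ± 0.35 in APLP2_KO over APP_KO (limma adjusted p = 0.298) and at 1.35 in N_dCKO over WT (0.0884); it was called when APP_KO array 2 was left out (1.86). It too was chosen after its values were seen.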
